A study of Arabidopsis thaliana with 16 samples.

Results

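Transcripts primed with oligo(dT) were compared between paps1-1 and wild-type (WT) pollen tubes of Arabidopsis thaliana. The comparison used the 8 oligo(dT) libraries of the 16 in the series, 4 from paps1-1 tubes and 4 from WT tubes, chosen by their sample titles. The other 8 libraries were primed with random hexamers from the second portion of the same RNA samples, and their values are given beside some results. Both groups were of the ecotype Col-0, and the tubes were grown semi-in vivo, a method in which pollen germinates on a pistil and the tubes grow out of its cut end. The labels leave unstated the genotype of the pistil, the growth temperature, the time of collection, and what separates 1 replicate from another (plants, cultures or days). The p-values therefore reflect the spread among these 8 samples alone, and that spread may be technical.

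Poly(A) polymerases add the adenosine tail to the 3-prime end of a cleaved messenger RNA. The tail binds poly(A)-binding proteins, and it promotes export, translation and stability. PAPS1 is 1 of the nuclear poly(A) polymerases of Arabidopsis, and paps1-1 is a missense allele with reduced enzyme activity. An oligo(dT) primer anneals to the tail, so the counts of such a library depend on the level of a transcript and on whether its tail can be primed. Those contributions cannot be told apart in these libraries. The pollen tube is a single fast-growing cell that carries the sperm cells through the pistil, and its messenger RNAs are dominated by genes for wall enzymes, secreted peptides and signalling proteins.

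Gene counts were 2896980.0, 4483949, 718090.0 and 568602 in paps1-1 replicates 1 to 4 and 2946040.0, 999670.0, 70006 and 887011 in WT replicates 1 to 4. WT replicate 3 was the shallowest of the 8 libraries, and a gene with no count there may still have stood at up to 42.9 CPM (3 counts, where CPM is a gene's counts scaled to the total gene counts of its library), against 0.669 to 5.28 CPM in the other libraries. Such limits cover counting error only. The libraries differed beyond their depth as well. Counts on the strand opposite to the gene were 19.9% of stranded gene counts in paps1-1 replicate 4 and 34.0% in WT replicate 3, 10.6% in WT replicate 4, and 4.18% to 5.61% in the other 5 libraries. Replicates resembled each other little more than the genotypes did, with a median Spearman rho across tested genes of 0.330 between paps1-1 libraries, 0.267 between WT libraries and 0.269 between genotypes.

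The number of genes with 1 count or more was 12266, 14241, 5424 and 5906 in paps1-1 replicates 1 to 4 and 6210.0, 5886, 2266 and 7750.0 in WT replicates 1 to 4. The 2 deepest paps1-1 libraries lay above the others, and paps1-1 replicates 3 and 4 lay within the range of WT. WT replicate 1 held about as many gene counts as paps1-1 replicate 1 and registered 6210 genes, against 12266 in that library. At the depth of the shallowest library the expected numbers were 7635, 10614, 4809.7 and 4905 in paps1-1 and 4568, 5005, 2266 and 6707 in WT. The mean difference of 3931 genes at full depth gave an exact two-sided permutation p of 0.257, and with groups of 4 the smallest p possible is 0.0286. The 10 most abundant genes of each library accounted for 20.2, 8.19, 7.13 and 12.4% of its gene counts in paps1-1 and 23.2, 22.2, 18.7 and 15.2% in WT. That share was lower in 3 of 4 paps1-1 libraries than in any WT library. The mean difference was -7.87 percentage points, with an exact two-sided permutation p of 0.0857 (0.171 after Benjamini-Hochberg adjustment over these 2 measures).

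**Figure D1:**
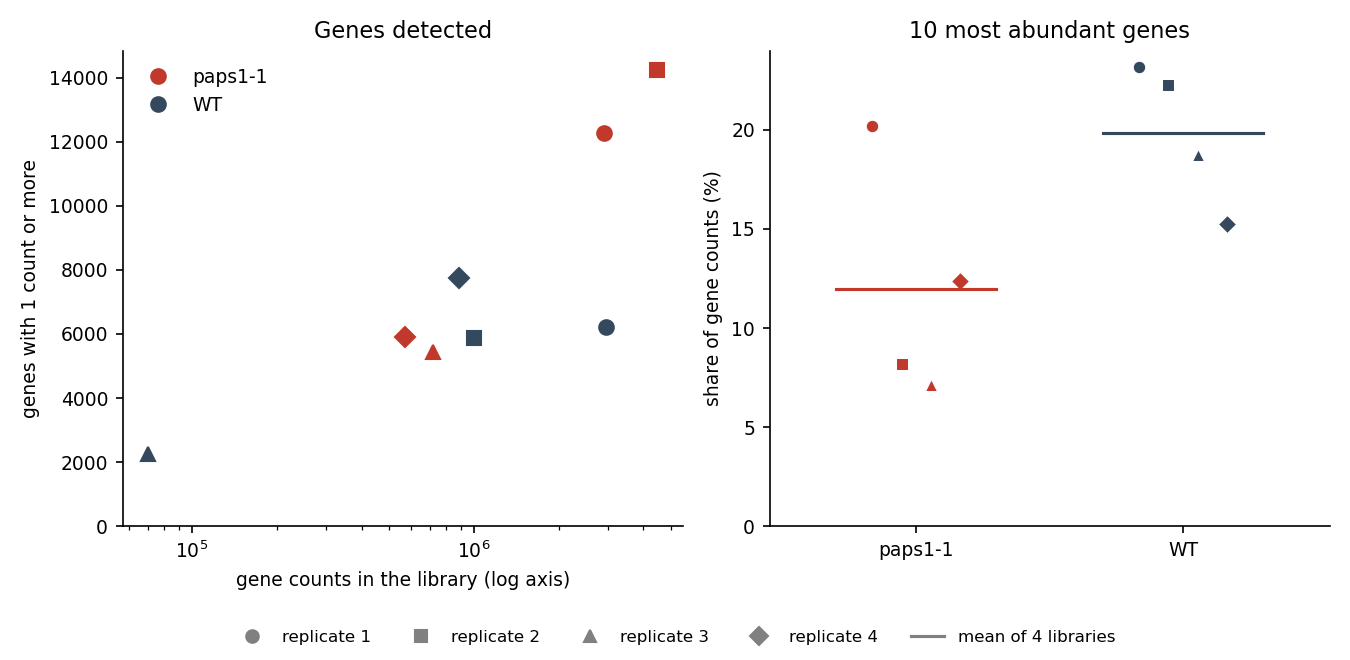
Left, genes with 1 count or more against gene counts (log axis), 1 point per oligo(dT) library; right, share of gene counts (percent) in the 10 most abundant genes of each library, with the group mean as a line. WT replicate 1 registered 6210 genes at a depth at which paps1-1 replicate 1 registered 12266, and the share of the 10 most abundant genes ranged from 7.13% to 20.2% in paps1-1 and from 15.2% to 23.2% in WT.

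A single gene, AT1G34095, passed the threshold between genotypes (an adjusted p under 0.05), and it was lower in paps1-1. It lies on chromosome 1 and is annotated as a protein of unknown function. It was at 0, 0.223, 150.4 and 113 CPM in paps1-1 replicates 1 to 4, against 3797, 3439, 2757 and 3822 CPM in WT replicates 1 to 4. In counts these were 0, 1, 108 and 64 in paps1-1 and 11185, 3438, 193 and 3390 in WT. The groups did not overlap, and paps1-1 itself split into a pair of libraries with at most 1 count and a pair above 100 CPM. The log2 fold change was -6.00 ± 1.24 (SE), with an adjusted p of 0.00693 (edgeR quasi-likelihood test, Benjamini-Hochberg adjustment over 5101 tested genes). This 1 call is 0.0196% of the genes tested, and 86 genes had an unadjusted p under 0.05.

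With random hexamers AT1G34095 was at 0.378, 4.80, 205 and 139.6 CPM in paps1-1, against 4387, 3153, 4688 and 2737 CPM in WT. The same paps1-1 replicates were near 0 and above 100 CPM under both kinds of priming. Without paps1-1 replicate 2 or 4, or without WT replicate 1, 2 or 4, the adjusted p was between 0.140 and 0.381 with a log2 fold change of -6.62 to -5.60. Of the loci on either side by locus number, AT1G34080 and AT1G34090 had no count in any of the 8 libraries, and AT1G34097 had 64 counts in WT replicate 4 and none elsewhere. AT2G45403, on chromosome 2, is named in the annotation as the closest protein match of AT1G34095. It had 360, 68, 0 and 7 counts in paps1-1 and 1, 241, 69 and 176 counts in WT, so its counts did not follow those of AT1G34095.

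The genes next in order of unadjusted p with lower levels in paps1-1 did not pass the threshold. They were taken among tested genes whose CPM values did not overlap between groups, of which 41 (0.804% of those tested) were lower in paps1-1. AT4G40000, a methyltransferase-family gene, was at 0, 0, 0 and 0 CPM in paps1-1, against 51.6, 51.0, 599.9 and 58.6 CPM in WT. It was the only tested gene with counts in all 4 WT libraries and in no paps1-1 library, and WT replicate 3 was the highest with 42 counts. Without paps1-1 counts the gene entered the test only through its WT counts, so it had to differ. That no other gene did so says little, as WT replicate 3 was at 0 for 77.0% of tested genes. Averaged over libraries it was at least 68.2-fold lower in paps1-1, where the bound takes 3 counts in each paps1-1 library, and at least 19.3-fold lower without WT replicate 3 (adjusted p = 0.898, edgeR). In the random-hexamer libraries it was at 0.944, 4.20, 5.63 and 0 CPM in paps1-1, against 0, 5.30, 0 and 0 CPM in WT, close to 0 in both.

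ROF2 (AT5G48570), a heat-inducible FKBP-type prolyl isomerase that acts as a co-chaperone, was at 369, 303, 79.4 and 301 CPM in paps1-1, against 2584, 1598, 1686 and 1599.8 CPM in WT. Every WT library was more than 4 times as high as any paps1-1 library. Its log2 fold change was -2.57 ± 1.14, with an unadjusted p of 0.0242 and an adjusted p of 1.00 (edgeR). In the random-hexamer libraries it was at 907, 383, 366 and 775 CPM in paps1-1, against 3430.4, 2813, 2433 and 2367 CPM in WT, again with no overlap. Hop3 (AT4G12400), an adaptor between the chaperones Hsp70 and Hsp90, was at 50.7, 137, 212 and 1.76 CPM in paps1-1, against 553, 367, 1071 and 529.9 CPM in WT. The lowest of its paps1-1 values was that of replicate 4, and the log2 fold change was -2.53 ± 1.40 (unadjusted p 0.0712). In the random-hexamer libraries Hop3 was at 140.0, 121, 98.4 and 156 CPM in paps1-1, against 1375, 1557, 1358 and 992 CPM in WT.

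RABH1e (AT5G10260), a Rab GTPase of membrane traffic, was at 74.9, 59.99, 146 and 3.52 CPM in paps1-1, against 337, 150.1, 1657 and 322 CPM in WT, with WT replicate 3 far above the other WT libraries. AT3G46220, annotated as a ligase for the ubiquitin-like modifier UFM1, was at 34.5, 45.9, 1.39 and 82.7 CPM in paps1-1, against 185, 257, 599.9 and 362 CPM in WT. The remaining 4 genes of this group had no count in 2 or 3 paps1-1 libraries. PSAT1 (AT1G04010), which esterifies sterols, was at 0, 14.9, 0 and 0 CPM in paps1-1, against 75.4, 61.0, 514 and 42.8 CPM in WT. AT1G43630, of a family without assigned function, was at 21.7, 9.14, 0 and 0 CPM in paps1-1, against 261, 60.02, 343 and 132 CPM in WT. AT5G53360, with a TRAF-like domain, was at 19.7, 21.6, 0 and 0 CPM in paps1-1, against 85.5, 44.0, 500.0 and 325 CPM in WT. The lowest WT value of these 3 genes was in replicate 2 or 4, and the highest was in replicate 3, the shallowest library. NUDT12 (AT1G12880), a Nudix hydrolase, was at 31.1, 2.68, 0 and 0 CPM in paps1-1, against 127, 118, 371 and 176 CPM in WT. Log2 fold changes of these 6 genes ran from -4.83 to -2.70, with unadjusted p between 0.0563 and 0.0963 and an adjusted p of 1.00 (edgeR).

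Genes higher in paps1-1 without overlap between groups numbered 123 (2.41% of those tested), and none of them passed the threshold. This count cannot be set against the 41 lower genes, because a gene at 0 in any WT library could not be lower without overlap, and WT replicate 3 was at 0 for 77.0% of tested genes. Without WT replicate 3, an alternative chosen after seeing the data, 139 of the same tested genes were higher (2.72%) and 212 lower (4.16%) without overlap. Most of the 10 with the smallest p had no WT count. A gene without WT counts entered the test only if all 4 paps1-1 libraries held enough counts, so such genes had to differ. There were 44 of them.

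POP2 (AT3G22200), the transaminase that degrades the pollen-tube guidance molecule GABA, was at 60.4, 162, 682 and 274 CPM in paps1-1, against 0.339, 0, 0 and 0 CPM in WT. Its 1549 counts in paps1-1 and 1 count in WT gave a ratio of 876 once divided by total gene counts (95% counting interval 157 to 34629). That interval leaves out the spread between libraries, and the adjusted p was 0.403 (edgeR). In the random-hexamer libraries POP2 was present in each WT library, at 60.6, 204, 131 and 33.4 CPM in paps1-1, against 25.5, 41.2, 1.59 and 54.3 CPM in WT. ENDO2 (AT1G68290), an endonuclease, was at 71.1, 376, 131 and 251 CPM in paps1-1, against 0, 1.00, 0 and 0 CPM in WT, with 2128 counts in paps1-1 and 1 in WT. BGLU18 (AT1G52400), a beta-glucosidase that releases abscisic acid from its glucose ester, was at 61.1, 372, 265 and 66.8 CPM in paps1-1, against 1.02, 0, 0 and 1.13 CPM in WT. Its random-hexamer values were 296, 3008, 651 and 421 CPM in paps1-1, against 103, 713, 0 and 140.3 CPM in WT, and paps1-1 replicate 2 was the highest library under both kinds of priming.

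The other 7 genes had counts in all 4 paps1-1 oligo(dT) libraries and in none from WT. BRI1 (AT4G39400), the receptor of brassinosteroid hormones, was at 27.3, 79.6, 199 and 230.4 CPM in paps1-1. The random-hexamer values of BRI1 were 35.5, 212, 278 and 75.0 CPM in paps1-1, against 23.8, 149.7, 0 and 74.6 CPM in WT, where the groups overlapped. ABCB19 (AT3G28860), an auxin exporter, was at 32.4, 81.6, 113 and 257 CPM in paps1-1. GSL03 (AT2G31960), of the callose synthase family, was at 22.1, 97.9, 39.0 and 317 CPM in paps1-1, and its random-hexamer values of 65.2, 245, 187 and 118 CPM in paps1-1, against 49.6, 107, 95.5 and 54.8 CPM in WT overlapped. AT3G16080, a protein of the large ribosomal subunit, was at 48.0, 229, 58.5 and 213 CPM in paps1-1. AT1G76010, an Alba-type RNA-binding protein, was at 53.5, 45.7, 301 and 139 CPM in paps1-1, and with random hexamers it was at 52.3, 91.8, 132 and 25.4 CPM in paps1-1, against 80.7, 72.2, 38.2 and 199 CPM in WT. MVP1 (AT1G54030), a lipase-like protein of the endomembrane system, and EDA39 (AT4G33050), which binds calmodulin, completed the group with means of 122 ± 76.3 and 134 ± 143 CPM (SD, n = 4) in paps1-1. Averaged over libraries these 7 genes were at least 9.46-fold to 10.9-fold higher in paps1-1, a bound that takes 3 counts in each WT library and rests on the shallow WT replicate 3. Without that library the bounds were 48.2-fold to 55.6-fold. Their adjusted p was 0.984 or above (edgeR).

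**Figure D2:**
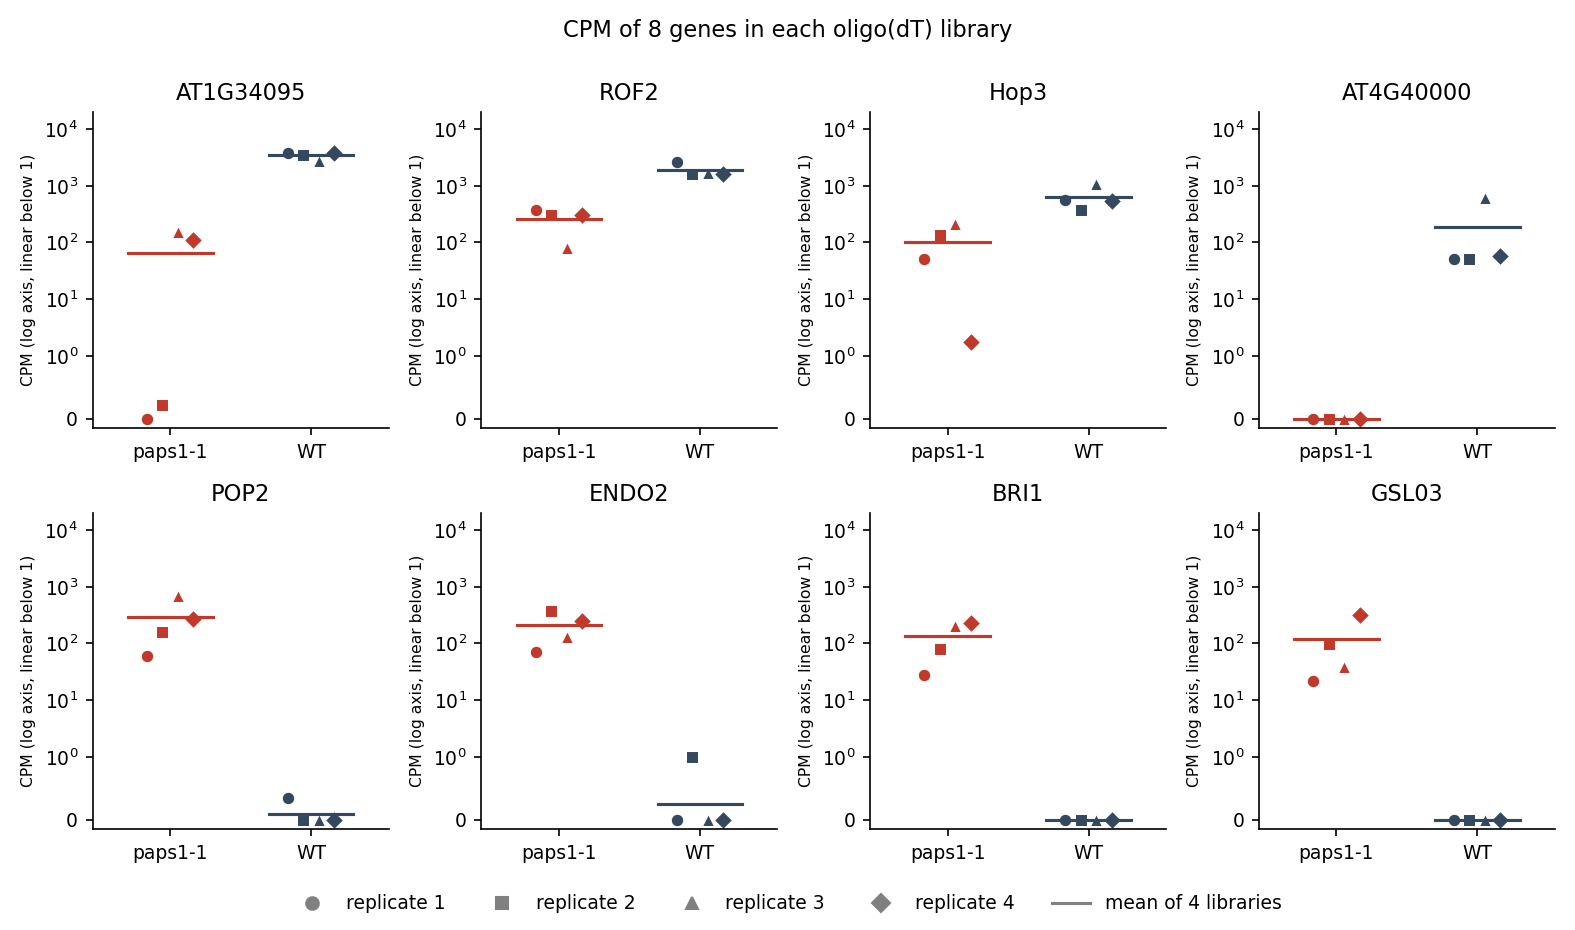
CPM of 8 genes in each oligo(dT) library, paps1-1 at left and WT at right in each panel (log axis, linear below 1), with 1 point per library and the group mean as a line. AT1G34095, ROF2, Hop3 and AT4G40000 were lower in every paps1-1 library than in any WT library, and POP2, ENDO2, BRI1 and GSL03 were higher, with at most 1 WT count each; AT1G34095 alone passed the threshold.

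Over all 5101 tested genes the log2 fold change had a median of 0.43 (quartiles -0.44 and 1.37), and 63.5% were positive. With DESeq2 size factors in place of the trimmed mean of M-values (TMM) the median was 0.81. Counts of positive members below are therefore set against the median of all tested genes. Only 438 tested genes had a count in all 8 libraries, and WT replicate 3 was at 0 for 77.0% of tested genes.

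**Figure D3:**
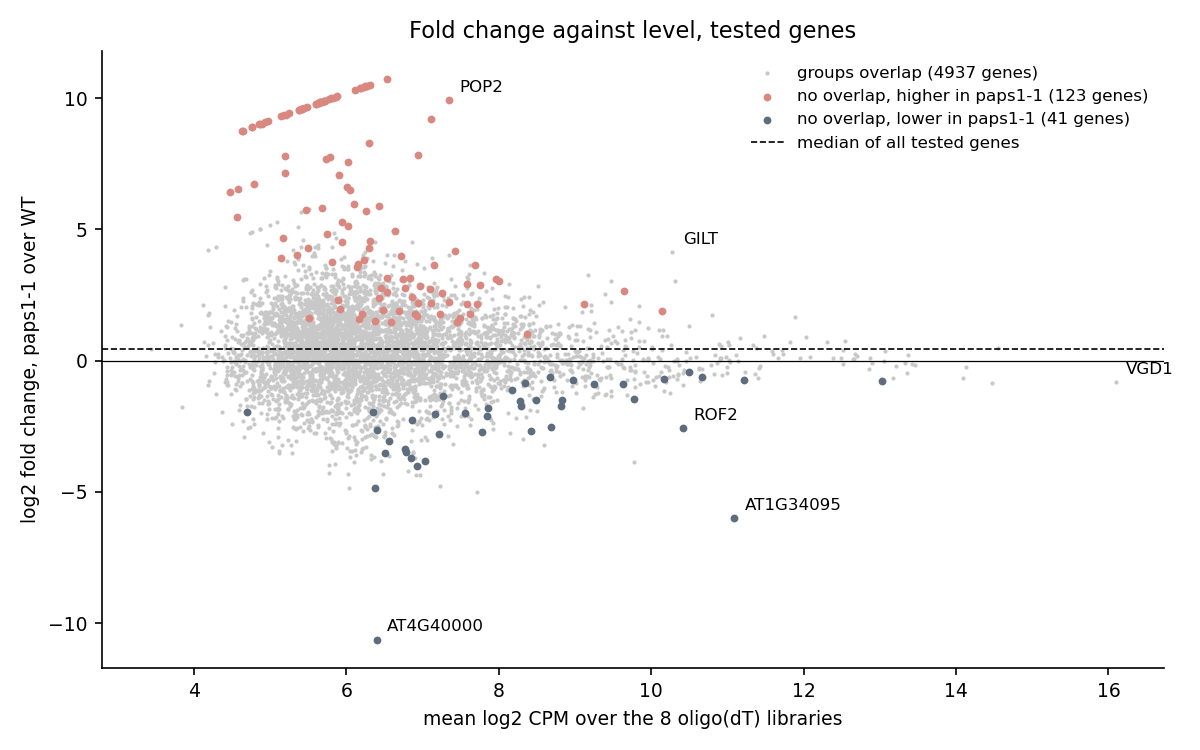
Log2 fold change of paps1-1 over WT against mean log2 CPM for the 5101 tested genes, with the median of 0.43 as a dashed line. Dark points are the 41 genes lower in paps1-1 and light red points the 123 higher without overlap between groups; the streak at the upper left holds genes with no WT count, and AT1G34095 stands apart at a log2 fold change of -6.00.

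The poly(A) polymerase genes themselves did not pass the threshold. PAPS1 (AT1G17980) was at 47.3, 64.2, 308 and 79.1 CPM in paps1-1, against 284, 47.0, 0 and 58.6 CPM in WT, with a log2 fold change of -0.06 ± 1.77. As paps1-1 changes the protein, this level does not check the genotype labels. PAPS2 (AT2G25850), a second nuclear polymerase, was at 62.1, 201, 51.5 and 107 CPM in paps1-1, against 70.3, 225, 699.9 and 68.8 CPM in WT. PAPS4 (AT4G32850), the third nuclear enzyme, was at 106, 326, 283 and 121 CPM in paps1-1, against 178, 59.0, 0 and 273 CPM in WT. Both groups overlapped for these genes, with log2 fold changes of -0.80 ± 1.60 and 0.61 ± 1.54. PAPS3 (AT3G06560), the cytoplasmic form, was at 17.6, 15.8, 0 and 0 CPM in paps1-1, against 45.8, 68.0, 0 and 68.8 CPM in WT. In 9 of 23 genes of poly(A) polymerase and 3-prime end processing that were tested the median log2 fold change was -0.06, and 3 of them lay above the median of all genes. None of these genes passed the threshold.

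The 4 tested of 8 cytoplasmic poly(A)-binding protein genes all had negative log2 fold changes, with a median of -0.90. The signs were not stable, as 2 of 4 were positive without WT replicate 1 (median 0.04, against 0.64 over all genes), 3 of 5 without paps1-1 replicates 2 and 3 (0.05, against 0.28) and 4 of 8 without a filter (1.35, against 1.47). PAB2 (AT4G34110), the most abundant, was at 479, 357, 187 and 309.5 CPM in paps1-1, against 513, 132, 514 and 870.3 CPM in WT. PAB7 (AT2G36660), a pollen form, was at 147, 154, 1.39 and 7.03 CPM in paps1-1, against 257, 221, 599.9 and 65.4 CPM in WT. Both groups overlapped for each gene, no member passed the threshold, and the standard errors of 1.25 and 1.57 were as large as or larger than the log2 fold changes of -0.32 and -1.25. Of 27 mRNA decay genes 9 were tested, with a median of 0.82 and none past the threshold. NOT3 (AT5G18230), a subunit of the CCR4-NOT deadenylase complex, was the only one whose groups did not overlap, at 25.2, 88.1, 146 and 102 CPM in paps1-1, against 0, 0, 0 and 1.13 CPM in WT. The scaffold of that complex, NOT1 (AT1G02080), had a log2 fold change of -0.10 ± 2.16, and the decapping protein DCP1 (AT1G08370) one of -0.27 ± 2.23.

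The most abundant transcripts were those of pollen wall enzymes and secreted proteins, as is known of pollen. VGD1 (AT2G47040), a pectin methylesterase that pollen tubes need to grow through the style, was at 58819, 24126, 17517 and 32603 CPM in paps1-1, against 66639, 68573, 128232 and 55462 CPM in WT. paps1-1 replicates 2 to 4 lay below every WT library, and replicate 1 lay between WT replicates 4 and 1. Its log2 fold change was -0.83 ± 0.60 (adjusted p = 1.00, edgeR), and with DESeq2 size factors it was -1.27, past the threshold at an adjusted p of 8.94e-22 in edgeR, while the DESeq2 Wald test gave the same log2 fold change an adjusted p of 0.863. SKS13 (AT3G13400), of the multicopper-oxidase-like SKU5 family, was at 17850.3, 7631, 6871 and 11570.5 CPM in paps1-1, against 32414, 33342, 5685 and 16433 CPM in WT. AGP23 (AT3G57690), an arabinogalactan peptide, was at 33984, 12175, 10878 and 16688 CPM in paps1-1, against 31563, 12750.2, 1357 and 11481 CPM in WT. WT replicate 3 was the lowest library for both of these genes and the highest for VGD1.

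RALFL8 (AT1G61563), a signalling peptide of the RALF family, was at 18599, 6651, 5786 and 13196 CPM in paps1-1, against 20074, 24696, 971 and 10938 CPM in WT. The beta-galactosidase BGAL11 (AT4G35010) was at 11003, 4454, 4614 and 8961 CPM in paps1-1, against 11028, 11378, 6471 and 9039 CPM in WT. Both genes overlapped between groups. The other 5 of the 10 most abundant genes were AT5G45880 (a pollen allergen-like protein), AT5G39880 (unknown function), BCP1 (AT1G24520), AT2G47050 (a pectin methylesterase inhibitor-like protein) and VGDH1 (AT2G47030). Log2 fold changes over the 10 genes ran from -0.85 for SKS13 to 0.48 for AGP23, with standard errors of 0.60 to 0.79 and no adjusted p under 1.00 (edgeR).

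Among 28 pollen cell wall genes 25 were tested, and 8 lay above the median of all genes. The list median was 0.21, and no member passed the threshold. AT3G01270, a pectate lyase, was the only member without overlap between groups, at 6357, 2943, 2219.8 and 5222 CPM in paps1-1, against 10868, 7584, 7085 and 8477 CPM in WT. PME48 (AT5G07410), a pectin methylesterase of pollen, had the highest log2 fold change of the list, 2.14 ± 1.29, at 1009, 636, 273 and 659.5 CPM in paps1-1, against 123, 288, 14.3 and 242 CPM in WT. Its random-hexamer values were 3043, 1495, 726 and 1729 CPM in paps1-1, against 674, 592, 506 and 582 CPM in WT, without overlap. VGDH2 (AT3G62170), of the same enzyme family, was at 7135, 2934, 1617 and 3162 CPM in paps1-1, against 2329, 1713, 629 and 758 CPM in WT. So within the wall list these pectin methylesterases and VGD1 had log2 fold changes of opposite sign, none of them past the threshold in edgeR with TMM and no replicate block. The summed share of the list was 17.4, 7.09, 5.41 and 10.3% of gene counts in paps1-1 and 18.9, 15.9, 15.2 and 12.2% in WT, with paps1-1 replicate 1 within the WT range.

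Of 36 genes for pollen-tube receptors and signalling 28 were tested, and 9 lay above the median of all genes. Their median was 0.09, and none passed the threshold. The RALF peptide gene RALF19 (AT2G33775) averaged 2854 ± 1261 CPM in paps1-1, against 2831 ± 1565 CPM in WT (SD, n = 4). The receptor kinase genes ANX1 and ANX2, whose products bind RALF peptides at the tube tip, had log2 fold changes of 0.47 ± 1.64 and 0.07 ± 1.13, and their partners BUPS1 and BUPS2 of 0.67 ± 1.19 and 1.19 ± 2.51. The cell-wall leucine-rich-repeat extensins LRX8 (AT3G19020) and LRX9 (AT1G49490) had 0.42 ± 0.94 and -0.13 ± 0.86. The receptor kinase PRK6 (AT5G20690), which senses the female LURE attractants, was the only member without overlap between groups. It was at 215, 130.5, 153 and 151 CPM in paps1-1, against 364, 347, 471 and 238 CPM in WT, and its log2 fold change was -0.86 ± 1.41.

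Actin cytoskeleton genes were tested for 15 of 20 members, with a median of 0.26 and 5 above the median of all genes. ADF7 (AT4G25590), an actin-severing protein of pollen, was at 1583, 799, 554 and 533 CPM in paps1-1, against 1747, 917, 457 and 663 CPM in WT. Ion and sugar transport genes were tested for 7 of 16 members, with a median of -0.60 and 1 positive member, the proton pump gene AHA8 (AT3G42640), at 0.19 ± 0.84. The calcium pump gene ACA9 (AT3G21180) was at 677, 268, 241 and 575 CPM in paps1-1, against 707, 316, 3357 and 603 CPM in WT, and its mean difference rested on WT replicate 3. STP11 (AT5G23270), a sugar transporter of the tube, did not overlap, at 96.3, 37.7, 62.7 and 42.2 CPM in paps1-1, against 104, 168, 486 and 104 CPM in WT. Pollen transcription factors were tested for 9 of 13 members, with a median of -0.74. MYB97 (AT4G26930) and MYB101 (AT2G32460), regulators that tubes need for sperm release, had log2 fold changes of -0.67 ± 1.76 and 1.18 ± 1.87. No gene of these 3 lists passed the threshold.

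Heat shock and protein folding genes lay mostly below the other genes. Of 28 members 20 were tested, 17 had negative log2 fold changes and 2 lay above the median of all genes. The list median was -0.68, against 0.43 over all tested genes, and no member passed the threshold. Relative to all genes it stayed between -2.15 and -0.92 over the fit above and 18 other settings. This was not particular to heat shock genes. The list medians of cytoplasmic poly(A)-binding proteins (-2.21 to -0.12 relative to all genes) and pollen transcription factors (-2.18 to -0.79) also stayed below in each setting. So did that of pollen ion and sugar transport (-2.08 to -0.0692). HSP90.1 (AT5G52640), the heat-inducible cytosolic Hsp90 chaperone, was at 347, 498, 171 and 274 CPM in paps1-1, against 1405, 993, 757 and 889.5 CPM in WT. The small heat shock protein gene HSP17.4 (AT3G46230) was at 904, 1174, 519 and 1031 CPM in paps1-1, against 1901, 1556, 1257 and 1578 CPM in WT. Together with ROF2 these were the 3 of 20 tested members without overlap between groups, all lower in paps1-1. Over all tested genes 0.804% were lower without overlap. A gene at 0 in any WT library could not be lower without overlap. The 41 lower genes therefore all came from the 681 tested genes with no WT library at 0, which makes 0.804% a low base for comparison.

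BAG6 (AT2G46240), a co-chaperone gene induced by heat, had the lowest log2 fold change of the list, -3.22 ± 1.46 (unadjusted p 0.0276). It was at 67.3, 50.8, 0 and 80.9 CPM in paps1-1, against 764, 794, 0 and 463 CPM in WT. HSP70 (AT3G12580) was at 149.8, 48.8, 0 and 209 CPM in paps1-1, against 602, 578, 0 and 496 CPM in WT. For both genes paps1-1 replicate 3 and WT replicate 3 were at 0, and the other 3 WT libraries were each above the other 3 paps1-1 libraries. With random hexamers BAG6 was at 154, 187, 180.0 and 215 CPM in paps1-1, against 1068, 963, 477 and 1026 CPM in WT, and HSP90.1 at 1206, 1298, 839.5 and 1376 CPM in paps1-1, against 4029, 7391, 3831 and 3494 CPM in WT. The 3 positive members were the heat shock factor HSFA2 and the endoplasmic-reticulum chaperones BIP1 and BIP2, with log2 fold changes of 1.48 ± 2.51, 1.07 ± 1.44 and 0.23 ± 1.39. The summed share of the list was 0.424, 0.709, 0.439 and 0.435% of gene counts in paps1-1 and 1.28, 1.03, 0.619 and 1.12% in WT, with WT replicate 3 below paps1-1 replicate 2.

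Cytosolic ribosomal protein genes lay above the other genes. For the large subunit 65 of 91 members were tested, 63 were positive and 58 lay above the median of all genes, with a list median of 1.76. For the small subunit 44 of 72 were tested, 42 were positive and 37 lay above that median, with a list median of 1.33. None passed the threshold. Without overlap, 2 of the 65 and 3 of the 44 were higher in paps1-1, against 2.41% of all tested genes. The large-subunit count was close to that share. A gene at 0 in any paps1-1 library could not be higher without overlap. The 123 higher genes therefore all came from the 1910 tested genes with no paps1-1 library at 0, which makes 2.41% a low base for both subunits. None was lower without overlap, which a member at 0 in any WT library could not be. RPL18 (AT3G05590) was at 116, 529, 538 and 405 CPM in paps1-1, against 39.4, 377, 0 and 154 CPM in WT, and AT3G04840, which encodes S3a, at 128, 599, 557 and 320.1 CPM in paps1-1, against 86.9, 129, 0 and 251 CPM in WT. RPSAb (AT3G04770), a small-subunit protein, was at 11.4, 18.5, 177 and 51.0 CPM in paps1-1 and at 0 in all WT libraries. AT5G02450, which encodes L36, was at 109.8, 308, 224 and 0 CPM in paps1-1, against 79.1, 8.003, 1343 and 221 CPM in WT, and its log2 fold change of -0.74 rested on WT replicate 3.

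As a share of gene counts the large-subunit genes made up 0.414, 1.90, 1.52 and 0.591% in paps1-1 and 0.154, 0.422, 0.283 and 0.726% in WT. paps1-1 replicates 2 and 3 lay above every WT library, and replicates 1 and 4 lay within the WT range. Without replicates 2 and 3, an alternative chosen after seeing the data, 50 of 70 large-subunit members were positive and the list median was 0.75, against 0.28 over all genes. For the small subunit 35 of 51 were then positive and 28 lay above the median of all genes, with a list median of 0.47. Translation factors were tested for 10 of 12 members, with a median of 1.10 and 7 above the median of all genes. An elongation factor 1-alpha gene, AT1G07940, was at 144, 635, 233 and 290.2 CPM in paps1-1, against 154, 91.0, 0 and 317 CPM in WT, and the initiation factor gene EIF4A1 (AT3G13920) had a log2 fold change of -0.14 ± 1.61. No translation factor passed the threshold.

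**Figure D4:**
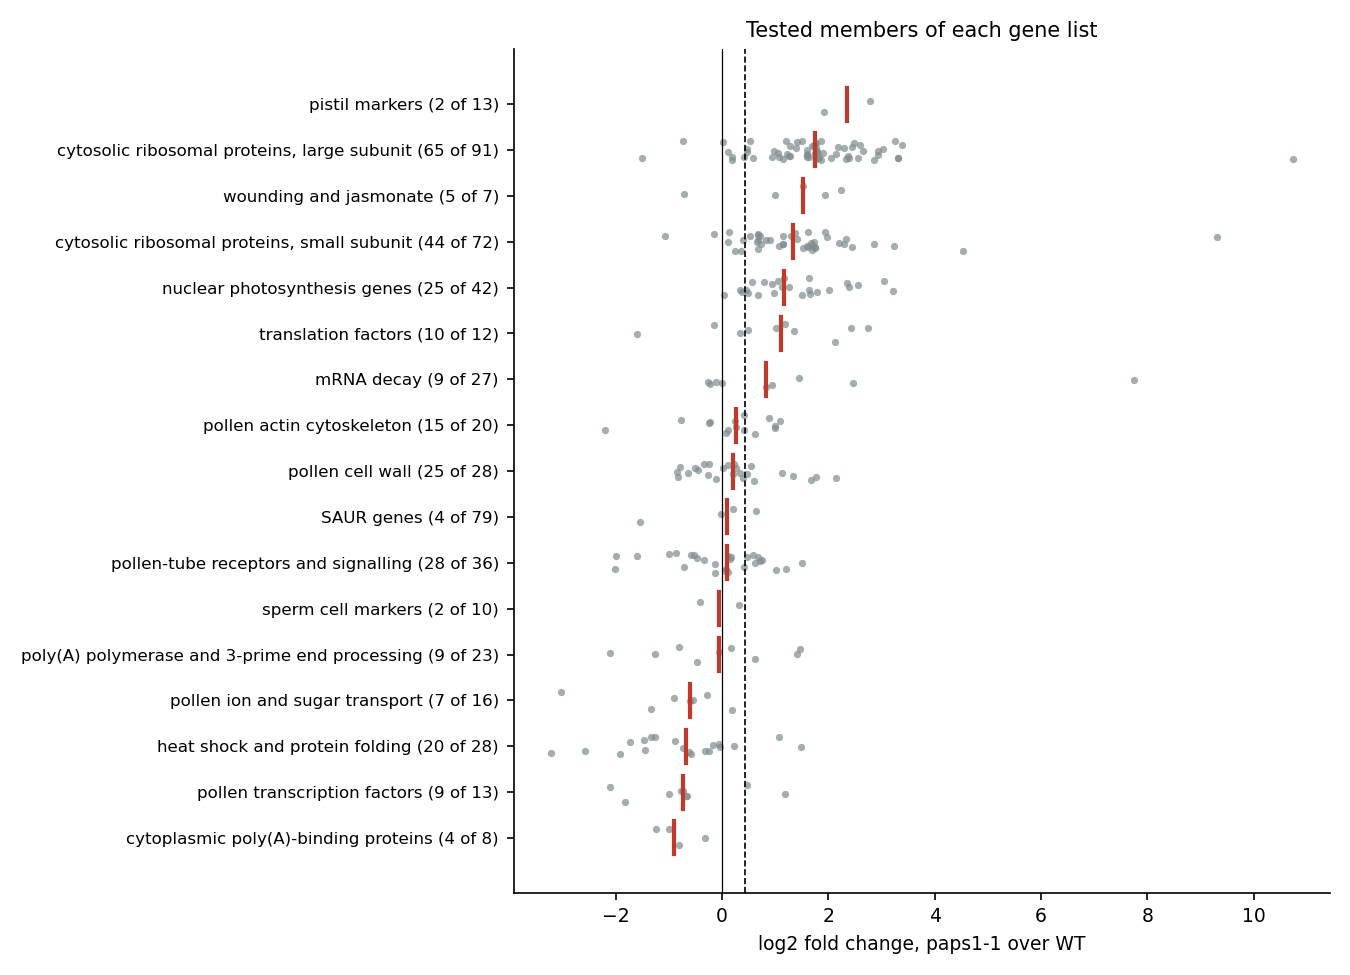
Log2 fold changes of paps1-1 over WT for the tested members (grey points) of 17 gene lists, with the list median as a red line and the median of all tested genes (0.43) as a dashed line; the number tested of all members stands beside each name. Ribosomal protein genes lay to the right of the dashed line (list medians 1.76 and 1.33) and heat shock genes to the left (-0.68). Several other list medians also lay to the left, such as those of cytoplasmic poly(A)-binding proteins (-0.90), pollen transcription factors (-0.74) and ion and sugar transport (-0.60).

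Nuclear photosynthesis genes, which mark green tissue, made up 0.104, 0.254, 1.97 and 0.126% of counts in paps1-1 and 0.0342, 0.137, 0.00571 and 0.535% in WT. paps1-1 replicate 3 was the highest and WT replicate 4 the next. All 25 tested of 42 members were positive, with a median of 1.17 and none past the threshold. RBCS1A (AT1G67090), the small subunit of Rubisco, was at 71.1, 109.9, 1108 and 114 CPM in paps1-1, against 0, 0, 42.9 and 550.2 CPM in WT. Without paps1-1 replicate 3 the list had 12 of 26 positive members and a median of -0.04, below the 0.57 of all genes. Wounding and jasmonate genes followed the same library. LOX2 (AT3G45140), which makes jasmonate precursors, was at 17.6, 83.9, 1922 and 219.8 CPM in paps1-1, against 2.04, 134, 0 and 306 CPM in WT, and the list median over 5 of 7 tested members was 1.51.

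Pistil markers made up 0.0210, 0.0634, 0.0242 and 0.0246% of counts in paps1-1 and 0.00804, 0.00240, 0.0143 and 0.00902% in WT, so that every paps1-1 library lay above every WT library. These shares rested on few genes. The WT counts were 237 of AG in replicate 1, 24 of SPT in replicate 2 and 10 of MYB98 in replicate 3. In replicate 4 they were 30 of SHP1 and 50 of HEC2. paps1-1 replicate 4 held 74 counts of AG and 66 of FER alone. MYB98 and HEC2 had counts in WT only. STK, SHP2, NTT, HEC3, INO and FER had counts in paps1-1 only, and of these FER alone had counts in every paps1-1 library. Of 13 markers 11 had a count in some library and 2 were tested, AG and SPT, neither past the threshold. AG (AT4G18960), which specifies stamens and carpels, was at 75.6, 63.1, 102 and 130.1 CPM in paps1-1, against 80.4, 0, 0 and 0 CPM in WT. The ovule identity gene STK (AT4G09960) was at 42.8, 299, 0 and 0 CPM in paps1-1 and at 0 in all WT libraries. The carpel gene CRC and the transmitting-tract gene HEC1 were at 0 in all 8 libraries. The part of pistil and green tissue in the genes that were higher in paps1-1, the ribosomal genes among them, was not tested. Tapetum and pollen-coat markers, of the anther wall, had 4 of 8 members with a count and none tested, and their share was at most 0.00118% in paps1-1 and 0.0127% in WT, with AMS, MS1, TDF1 and DYT1 at 0 in all 8 libraries.

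**Figure D5:**
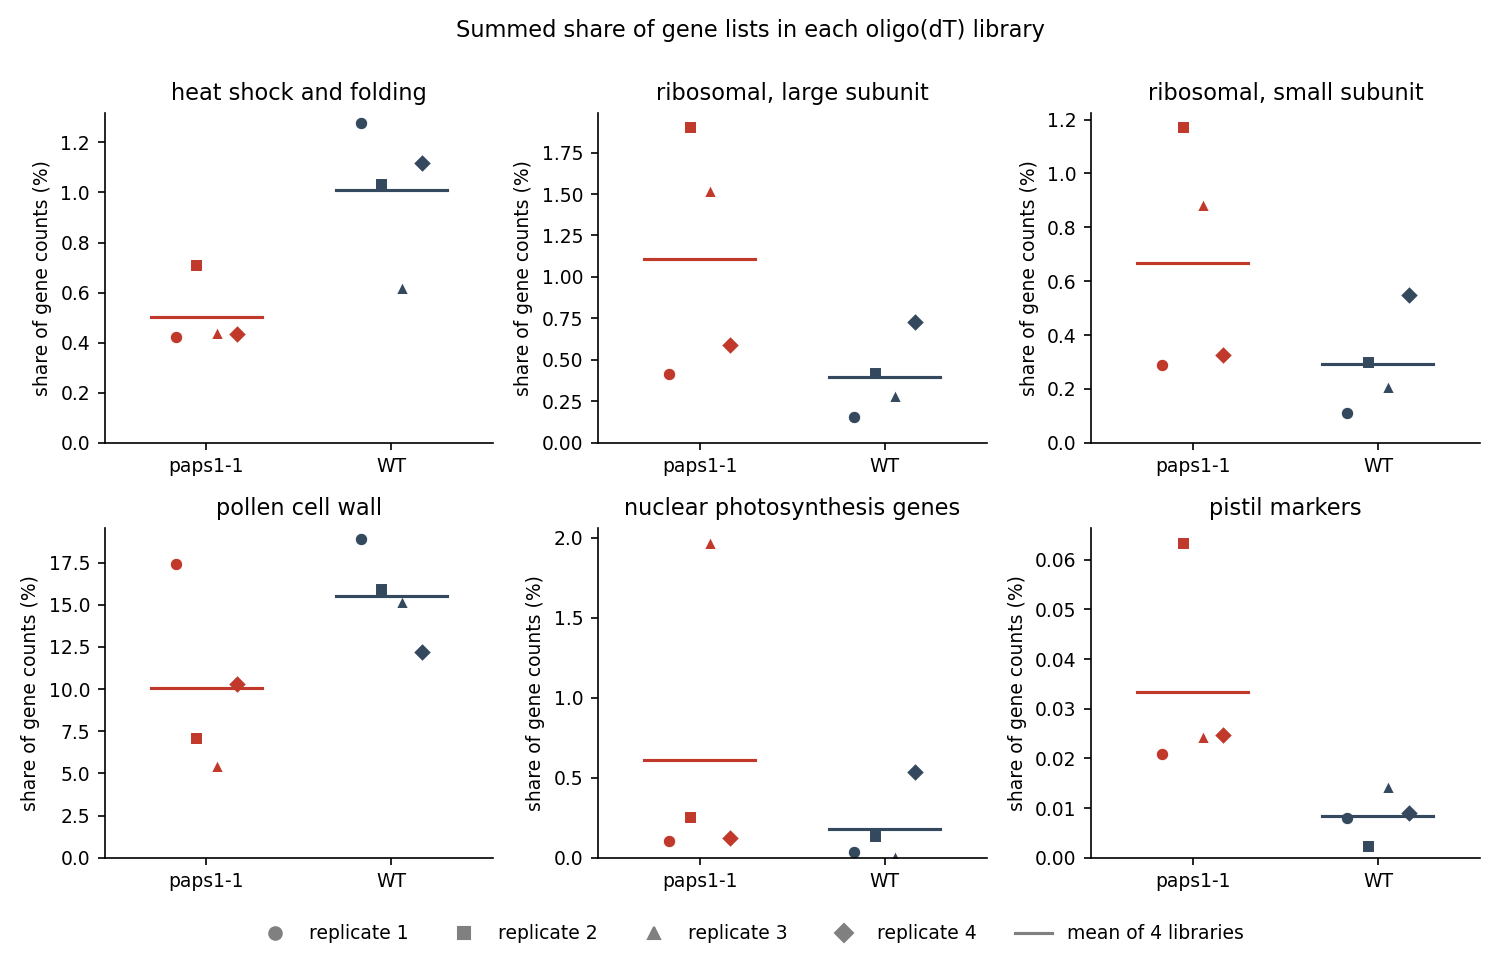
Summed share of gene counts (percent) of 6 gene lists in each oligo(dT) library, paps1-1 at left and WT at right in each panel, with the group mean as a line. The pistil share was 0.0210% to 0.0634% in paps1-1 and 0.00240% to 0.0143% in WT; the photosynthesis share reached 1.97% in paps1-1 replicate 3, and both ribosomal shares were highest in paps1-1 replicates 2 and 3.

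Of 10 sperm cell markers 8 had a count and 2 were tested, neither past the threshold. GEX1 (AT5G55490) was at 378, 127, 220.0 and 343 CPM in paps1-1, against 516, 590.2, 0 and 368 CPM in WT, and PCR11 (AT1G68610) at 636, 347, 404 and 178 CPM in paps1-1, against 611, 508, 0 and 192 CPM in WT. Both were at 0 in WT replicate 3 and overlapped between groups in the other libraries. The fusogen gene HAP2 (AT4G11720) had counts in 3 paps1-1 libraries, at 8.63, 13.8, 0 and 179 CPM, and in no WT library. Other untested markers differed from HAP2. DUO1 had 43 counts in WT replicate 4 and none elsewhere. DMP8 had 10 counts in paps1-1 replicate 2 and 67 in WT replicate 2. DAZ2 had 22 counts in paps1-1 replicate 1, against 1 and 67 in WT replicates 2 and 4. HTR10 and DMP9 had counts in both genotypes. DAZ1 and GEX2 were at 0 in all 8 libraries.

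SAUR genes, small auxin-response genes named in earlier work on paps1-1 in leaves, were little detected in the tubes. Of 79 members 24 had a count and 4 were tested, with a median of 0.09. AT3G43120 was at 486, 254, 156 and 251 CPM in paps1-1, against 693, 150.1, 0 and 191 CPM in WT, and AT4G34750 at 221, 186, 1.39 and 61.6 CPM in paps1-1, against 124, 106, 486 and 66.5 CPM in WT. The summed SAUR share was 0.0786, 0.0725, 0.0650 and 0.0762% in paps1-1 and 0.103, 0.0466, 0.103 and 0.0505% in WT, close together in paps1-1 and more spread in WT. Of 8 immune response genes 1 was tested, the transcription factor gene WRKY33 (AT2G38470), at 13.5, 45.9, 399.7 and 0 CPM in paps1-1, against 0.679, 1.00, 0 and 27.1 CPM in WT. Of 8 hypoxia genes 1 was tested, SUS1 (AT5G20830), a sucrose synthase, at 46.9, 399, 155 and 157 CPM in paps1-1, against 77.1, 125, 0 and 133 CPM in WT. No SAUR, immune or hypoxia gene passed the threshold.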

How the data were processed

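RNA of 8 pollen-tube samples was measured in 16 libraries, of which the 8 primed with oligo(dT) are compared here (4 paps1-1, 4 WT). The values are raw read counts per gene as the authors deposited them, in 1 table per library. The submitters' processing notes name STAR and the genome TAIR10; version, annotation release, trimming and duplicate handling are not given in any source used here. For 33323 nuclear genes a table gives unstranded, gene-strand and opposite-strand counts. Gene-strand counts were used, after the 4 rows that name no gene (70.8% to 99.6% of a library's reads) were left out. Gene names came from RefSeq for TAIR10.1, which matched 32835 loci; no coordinates were taken from it. Chromosomes follow from the locus numbers.

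The genotype test was edgeR's quasi-likelihood F test (edgeR 4.0.16, R 4.3.3) with TMM normalisation, filterByExpr (minimum count 10, minimum total 15), Benjamini-Hochberg adjustment over all 5101 tested genes and a threshold of 0.05. Of 33323 genes 19507 had a count. Standard errors are the log2 fold change over the square root of F. Per-library values and means are CPM of gene counts without TMM factors, which ranged from 0.572 to 2.06, so a mean CPM and a fitted fold change can differ in sign. Genes detected and the share of the 10 most abundant genes had exact permutation tests, two-sided. No 2 replicates of a group agreed within sampling noise (lowest chi-square per degree of freedom 58.1), and all 8 libraries were kept.

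The libraries, the lists and the alternatives were chosen with earlier results of these data known. Ribosomal and SAUR lists were read from RefSeq product names and annotation notes. Named genes are called genes with mean log2 CPM of at least 3, filled to 10 per direction with the smallest unadjusted p among genes of mean log2 CPM of at least 5 whose groups did not overlap, the 4 PAPS genes, the 3 most abundant members of each of 20 lists, and the 10 most abundant genes. Other list members with values in the text, those without overlap included, were chosen after their values were seen. Alternatives were DESeq2 1.42.0 size factors and Wald test, limma 3.58.1 (voom with sample quality weights), other filters, unstranded counts, leaving out each library, a replicate block, a fit of all 16 libraries, and 2 left-out pairs of libraries chosen after seeing the data.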

Additional observations from a re-analysis of the deposited data

Results flagged for a closer look

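Over 196 groups of 4 library values, 38 single values lay far from the other 3 (Dixon's criterion on the gap to the nearest library). Chance flags about 1 in 20 groups only if values are independent and normally distributed. The values here were untransformed CPM and shares, often skewed, and list shares were included beside their own member genes. The 38 values therefore cannot be set against that rate. Of the 38 values, 12 were high values in paps1-1 replicate 3.

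In paps1-1 replicate 3 the green-tissue and jasmonate genes stood apart from the other paps1-1 libraries. The share of nuclear photosynthesis genes was 1.97% and of wounding and jasmonate genes 0.547%. The immune response share of 0.0400% was WRKY33 alone, and that share was higher in WT replicate 3, at 0.0443%. In paps1-1 replicate 3 LHCA1 was at 1816, PSAF at 1291, RBCS1A at 1108.5, VSP1 at 2122, LOX2 at 1922 and VSP2 at 1303 CPM. WRKY33 was at 399.7, EIFISO4E at 265 and PAPS1 at 308 CPM in the same library.

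In paps1-1 replicate 2 the share of pistil markers was 0.0634%, of tapetum and pollen-coat markers 0.00118% and of heat shock and protein folding genes 0.709%, and GA2OX6 was at 2326 CPM, each above the other paps1-1 libraries. paps1-1 replicate 4 had 19.9% of its stranded gene counts on the opposite strand, with AGL94 at 106 and HAP2 at 179 CPM. It also had 4.64 reads without a gene on the counted strand per gene count, a measure that can include opposite-strand reads. PLIM2b was at 964 CPM in paps1-1 replicate 1.

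WT replicate 3, with the fewest gene counts, had 1.31 reads without a gene on the counted strand per gene count, a measure that can include opposite-strand reads. In it AT4G40000 was at 599.9, PSAT1 at 514, RABH1e at 1657, ACA9 at 3357, AT5G02450 at 1343, AT4G34750 at 486 and FAF1 at 8385 CPM, above the other WT libraries, and AT2G47050 was at 2857 CPM, below them.

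In WT replicate 4 the share of tapetum and pollen-coat markers was 0.0127%, and LHCA1 was at 542, WRKY33 at 27.1, GRP5 at 794 and GRP7 at 2149 CPM, above the other WT libraries. ROF2 was highest in WT replicate 1, at 2584 CPM, the share of mRNA decay genes was lowest there, at 0.0305%, and the share of pollen ion and sugar transport genes was lowest in WT replicate 2, at 0.688%.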

How the results depend on the processing

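The log2 fold change of AT1G34095 was negative under each of 18 alternatives. It passed the threshold under the other normalisation, tests, filters, strand setting and block, in the fit of all 16 libraries, and without paps1-1 replicate 1 or 3 or WT replicate 3. Leaving out each library in turn gave -6.65 to -5.60, and the 5 losses are given with the gene. Without paps1-1 replicate 4 and WT replicate 3 (highest opposite-strand share) it was -6.94 at an adjusted p of 0.730 (edgeR), and without paps1-1 replicates 2 and 3 it was -6.05 at 1.00; both were chosen after seeing the data, and fewer libraries entered.

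Instead of 1 gene, 7 passed with DESeq2 size factors, 54 with the DESeq2 Wald test, 3 with voom, 2 without a filter, 2 with unstranded counts, 5 in the fit of all 16 libraries, 0 to 3 without single libraries, and 0 without either pair, where 387 and 291 had an unadjusted p under 0.05 in edgeR. The Wald test split was 52 higher and 2 lower. The cause was not tested. With the replicate block 4 passed (AT1G34095, VGD1, GRP5, GILT). Deviations of same-numbered libraries correlated at 0.205, 0.0530, 0.0228 and -0.0753. These values cannot tell whether replicate numbers pair the libraries, as they were not set beside those of differently numbered libraries and many genes were at 0. The block gave a p of 0.25 for genes detected and 0.125 for the share of the 10 most abundant genes (exact permutation within pairs, where 0.125 is the smallest p possible).

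The differences in genes detected (2337 to 5276 without single libraries) and in the share of the 10 most abundant genes (-10.6 to -6.25 percentage points) kept their sign and missed the threshold in each alternative, which the block could not have passed. Of 1420 alternative values of 80 named genes not past the threshold, 122 lay on the other side of 0 and 24 passed the threshold. Depth limits most statements about genes at 0 in WT replicate 3.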

Other observations

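The genes below passed the threshold only under an alternative and were named after their values were seen. GILT (AT4G12960), a thiol reductase of the lysosomal type, was at 522, 4970.2, 103 and 1053 CPM in paps1-1, against 0, 405, 14.3 and 0 CPM in WT, with a log2 fold change of 4.13 ± 1.24 and an adjusted p of 0.898 (edgeR). Its random-hexamer values were 151, 1783, 8.44 and 219 CPM in paps1-1, against 64.5, 266, 15.9 and 0 CPM in WT, and paps1-1 replicate 2 was the highest library under both kinds of priming. GRP5 (AT3G20470), a glycine-rich wall protein, was at 1519.5, 2929, 1812 and 336 CPM in paps1-1, against 46.5, 28.0, 0 and 794 CPM in WT. GRP7 (AT2G21660), an RNA-binding protein of the circadian clock, was at 942, 2079, 5909 and 742 CPM in paps1-1, against 143, 267, 14.3 and 2149 CPM in WT. For both, 3 of 4 WT libraries lay below every paps1-1 library and WT replicate 4 lay among them. FAF1 (AT4G02810), annotated as a FANTASTIC FOUR-like protein, was at 41.8, 3.35, 195 and 162 CPM in paps1-1, against 7.13, 0, 8385 and 133 CPM in WT, and its mean difference rested on WT replicate 3.

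AT3G43550 and AT3G43570, neighbouring lipase-like genes on chromosome 3, fell outside the test because WT replicate 3 was at 0. AT3G43550 was at 0, 0.669, 0 and 0 CPM in paps1-1, against 198, 559, 0 and 303 CPM in WT, and AT3G43570 at 0, 0.223, 0 and 0 CPM in paps1-1, against 422, 196, 0 and 58.6 CPM in WT. Each had at most 3 counts over the 4 paps1-1 libraries, with WT to paps1-1 ratios of 831 (95% counting interval 284 to 4034) and 2638 (473 to 104254). Their sequences were not compared, so whether similarity between these genes affected their counts was not tested. Both passed the threshold without WT replicate 3 and in the fit of all 16 libraries. GA2OX6 (AT1G02400), which inactivates gibberellins, was at 4.83, 2326, 0 and 40.5 CPM in paps1-1 and at 0 in WT, and rested on paps1-1 replicate 2.

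The following 4 genes were picked after their values were seen from the 41 lower without overlap, and none passed the threshold; no member of the actin cytoskeleton list was without overlap. The actin gene ACT2 was at 172, 120.2, 226 and 209 CPM in paps1-1, against 321, 655, 671 and 675 CPM in WT. The alpha-tubulin gene TUA2 was at 1069, 705, 751 and 978 CPM in paps1-1, against 1458, 1529, 1200.0 and 1209 CPM in WT. COBL10, a COBRA-like protein that tubes need for guidance, was at 1751, 948, 1082 and 1187 CPM in paps1-1, against 2654, 2223, 2314 and 2529 CPM in WT. Their log2 fold changes were -1.50, -0.44 and -0.74, with unadjusted p of 0.258, 0.680 and 0.453. The callose synthase gene GSL05 was at 88.0, 90.8, 2.79 and 0 CPM in paps1-1, against 107, 151, 829 and 167 CPM in WT.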
